A study of Homo sapiens with 4 samples.

Results

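The HOXA cluster on chromosome 7 was followed through 9 of its genes, HOXA2, HOXA3, HOXA4, HOXA5, HOXA7, HOXA9, HOXA10, HOXA11 and HOXA13, in single-cell RNA sequencing of LNCaP prostate cancer cells that were sensitive or resistant to enzalutamide. The genes were taken by symbol and were 9 of the 33538 genes listed in each matrix. The set was chosen from earlier results of the same libraries, that is from its levels, shares of positive cells and co-detection, so these are given as a description, without a test. On GRCh38 they run along the minus strand from HOXA2 at chr7:27100354-27102686 to HOXA13 at chr7:27193503-27200091, with HOXA4 at chr7:27128507-27130780, HOXA5 at chr7:27141052-27143681, HOXA7 at chr7:27153716-27157936 and HOXA11 at chr7:27181157-27185232 between them. HOXA6, with the long noncoding RNAs of the region, is given separately as the rest of the cluster. LNCaP is an established human line from a lymph node metastasis of prostate cancer that depends on the androgen receptor, and enzalutamide is a drug that blocks this receptor.

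The 4 groups held 1 library each. LNCaP was the parental line exposed for 48 h to 0.1% DMSO, the solvent, and LNCaP-ENZ48 was the same line exposed for 48 h to 10 µM enzalutamide. RES-A and RES-B were resistant lines derived from LNCaP, RES-A by passaging in rising enzalutamide and RES-B with the related antagonist RD-162, and both were kept in 10 µM enzalutamide at every splitting and feeding. Each resistant line was thus 1 derivation, read once and kept in the drug, so resistance, the history of the line and the drug present could not be told apart. Living cells were sorted from each culture.

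HOX genes encode homeodomain transcription factors that give cells their position along the body axis, and they lie in 4 clusters, HOXA to HOXD, in which the gene order follows the order of expression along that axis. Genes of the same number in different clusters are paralogues, and groups 9 to 13, at the posterior end, pattern the urogenital tract and the limbs. HOX proteins bind DNA together with PBX and MEIS cofactors, and Trithorax and Polycomb complexes keep the clusters on or off. In the prostate the posterior gene HOXB13 marks luminal cells.

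In these libraries the cluster gave few UMIs (unique molecular identifiers, each 1 captured transcript), and HOXA10 gave most of them in every library but RES-A. HOXA10 was 11.2-fold higher in RES-B than in LNCaP and 12.3-fold lower in RES-A, while HOXA11 was about 6-fold higher in both resistant lines and HOXA4 was near or at 0 in both. HOXA10 had 2 annotated start sites with an entry in the RefSeq promoter table of GRCh38.p14, and the promoters of HOXA10, HOXA4 and HOXA11 are shown because the results turn on these 3 genes. Each window spans 250 bases before to 50 bases after a start site, reads 5′ to 3′ on the minus strand, and has matches to CCAAT, to TATAAA or to AGAACA in capitals, those on the other strand as their reverse complement.
HOXA10, outer start, chr7:27179812-27180111: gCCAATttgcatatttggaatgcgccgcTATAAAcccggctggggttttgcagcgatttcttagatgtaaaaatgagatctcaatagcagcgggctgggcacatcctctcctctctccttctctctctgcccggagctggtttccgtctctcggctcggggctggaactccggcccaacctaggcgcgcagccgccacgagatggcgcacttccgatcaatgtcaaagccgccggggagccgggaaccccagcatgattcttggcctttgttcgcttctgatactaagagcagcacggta
HOXA10, inner start, chr7:27174271-27174570: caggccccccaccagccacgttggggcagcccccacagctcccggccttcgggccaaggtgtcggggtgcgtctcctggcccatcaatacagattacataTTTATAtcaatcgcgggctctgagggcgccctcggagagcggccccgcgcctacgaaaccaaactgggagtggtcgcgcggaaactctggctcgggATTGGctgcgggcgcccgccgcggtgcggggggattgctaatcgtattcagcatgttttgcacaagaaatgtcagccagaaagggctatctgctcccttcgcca
HOXA4, chr7:27130708-27131007: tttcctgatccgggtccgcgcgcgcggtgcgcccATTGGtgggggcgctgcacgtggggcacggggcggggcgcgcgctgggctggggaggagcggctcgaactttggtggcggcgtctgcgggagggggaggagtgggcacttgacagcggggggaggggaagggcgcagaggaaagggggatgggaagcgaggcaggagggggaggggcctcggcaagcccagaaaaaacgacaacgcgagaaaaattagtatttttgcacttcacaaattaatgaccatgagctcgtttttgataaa
HOXA11, chr7:27185183-27185482: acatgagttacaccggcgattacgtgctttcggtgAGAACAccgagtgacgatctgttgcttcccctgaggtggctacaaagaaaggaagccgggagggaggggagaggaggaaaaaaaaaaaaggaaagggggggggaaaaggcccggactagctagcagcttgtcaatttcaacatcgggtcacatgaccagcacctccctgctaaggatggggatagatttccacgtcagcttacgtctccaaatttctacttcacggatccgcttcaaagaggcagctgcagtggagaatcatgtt

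Both HOXA10 windows held 1 CCAAT, the letters of the CCAAT box, and 1 TATAAA, the letters of the TATA box. CCAAT was found in 34.6% of 35116 RefSeq promoters of the same length and TATAAA in 11.5%. The HOXA11 window held 1 AGAACA, a hexamer that the androgen receptor can bind, which 14.8% of promoters held, and no CCAAT or TATAAA. The HOXA4 window held 1 CCAAT and neither of the others. The 2 HOXA10 windows had 21 and 25 CpG dinucleotides, that of HOXA4 had 27 and that of HOXA11 had 13, beside a median of 14 over all promoters. Of the 9 genes, 8 matched the table, with 15 windows in all. TGTTTAC (the forkhead core, in 3.42% of promoters) and CCAATAAA (a HOXB13-type site that contains CCAAT, in 0.934%) were in none of the 15 windows, and TGATNNAT (a joint HOX and PBX site, in 7.4%) was in that of HOXA2 only. All motifs were searched on both strands, and a match is a match of letters, not a bound site.

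The libraries were deep enough for HOXA10 and shallow for most other members. After the cell limits of the study, 1782 cells were kept for LNCaP and 4315 for LNCaP-ENZ48, with 4569 for RES-A and 4061 for RES-B, with 50208831 to 60838227 UMIs per library. LNCaP cells were deeper, with a median of 27080 UMIs per cell against 12138 to 13676 in the other libraries, and their lower limit was 16000 UMIs rather than 5000. Levels are UMIs scaled to 1000000 UMIs of the library (CPM), with exact Poisson 95% intervals that cover counting error only, and a count of 0 was set to 3 UMIs for a ratio. Such a ratio is called a bound, and it leaves out the counting error of the other library. Pairs of libraries shared 2 to 12 cell barcodes. All 8 luminal markers had UMIs in every library, their summed level running from 1595 to 2420 CPM. KLK3 and TMPRSS2, targets of the androgen receptor, were at least 2-fold lower in each of the other libraries than in LNCaP, and KLK3 had only 2 UMIs in RES-A. KRT5 and TP63 of the basal list and PTPRC and CD3E of the leukocyte list had 0 UMIs in all 4 libraries. So had COL1A2 of fibroblasts and CDH5 of endothelium. Other markers of these lists did have counts. COL1A1 had 160, 181, 83 and 120 UMIs over the 4 libraries, VWF 51, 7, 27 and 20, and LUM 19, 12, 6 and 7. KRT14 had 15 UMIs in LNCaP and at most 2 in the others, and CD14, DCN and PECAM1 had at most 4 in any library. The summed basal, leukocyte, fibroblast and endothelial lists reached at most 0.299, 0.0698, 3.59 and 1.04 CPM, and their part in the low HOXA counts was not tested.

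**Figure D1:**
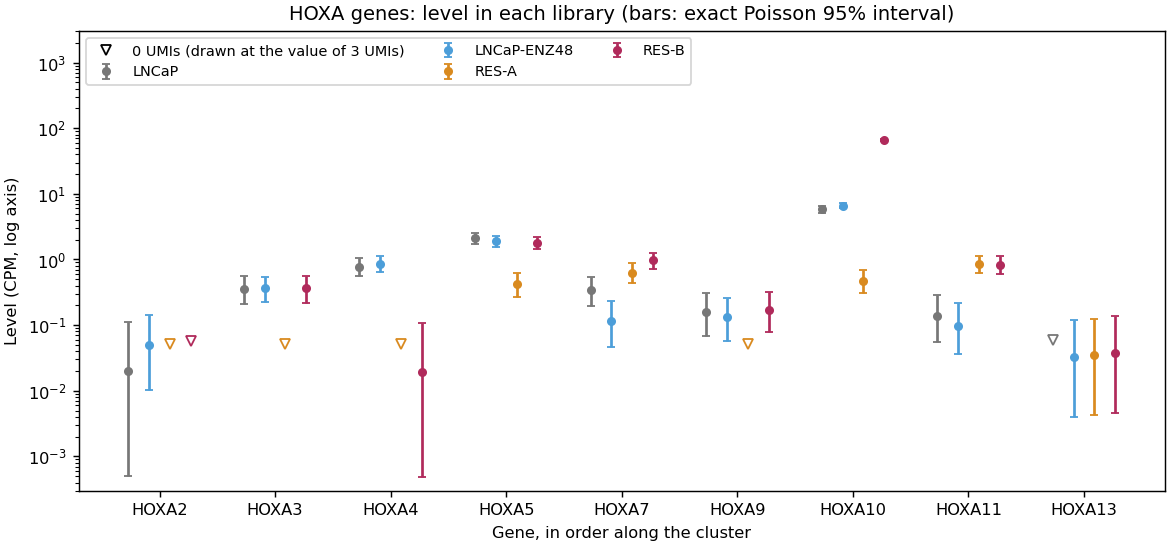
Level of each of the 9 HOXA genes (CPM, log axis) in the 4 libraries, with exact Poisson 95% intervals; open triangles stand for 0 UMIs and are drawn at the value of 3 UMIs. HOXA10 in RES-B, at 65.1 CPM, lies above every other point, and HOXA2, HOXA3, HOXA4 and HOXA9 have open triangles in RES-A.

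HOXA10 is a posterior gene that patterns the uterus, the male accessory glands and the hindlimb and takes part in blood cell growth. It lies at chr7:27170605-27180261 on the minus strand (ENSG00000253293, GRCh38). It had 291 UMIs in LNCaP, 404 for LNCaP-ENZ48, 27 for RES-A and 3422 for RES-B. As CPM the levels were 5.80 CPM (5.15 to 6.5) in LNCaP and 6.64 CPM (6.01 to 7.32) in LNCaP-ENZ48. They were 0.471 CPM (0.310 to 0.685) in RES-A against 65.1 CPM (62.9 to 67.3) in RES-B. RES-B was high and RES-A low, and only the intervals of LNCaP and LNCaP-ENZ48 overlapped. The log2 ratio to LNCaP was 3.49 (95% interval 3.32 to 3.67) in RES-B and -3.62 (-4.25 to -3.05) in RES-A. Between the resistant lines HOXA10 was 138-fold higher in RES-B, a log2 ratio of 7.11 (6.57 to 7.71). After 48 h of enzalutamide the log2 ratio was 0.20 (-0.02 to 0.42), an interval that includes no change and allows a rise of up to 1.34-fold. Against LNCaP-ENZ48, which also had the drug on, RES-B was 9.80-fold higher and RES-A was 14.1-fold lower. With 1 library per group none of these ratios has a replicate check.

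HOXA11, the next posterior gene, acts in limb, kidney and uterus development. It had 7 UMIs in LNCaP and 6 in LNCaP-ENZ48, against 49 for RES-A and 44 for RES-B, or 0.139, 0.0986, 0.855 and 0.837 CPM. Both resistant lines were high and both parental libraries low, with no overlap of the intervals between the 2 pairs. The log2 ratio to LNCaP was 2.62 (1.47 to 4.0) in RES-A and 2.59 (1.42 to 3.98) in RES-B. The resistant lines did not differ beyond counting error, with a log2 ratio of RES-B to RES-A of -0.03 (-0.65 to 0.59). Both ratios to LNCaP rest on its 7 UMIs: in G1 cells alone they were 3.799 and 3.73, and in cells thinned to 5000 UMIs, where LNCaP had 0, they were bounds of 1.38 and 1.55. The adjacent antisense RNA HOXA11-AS went the same way, at 0.558 CPM in LNCaP and 0.773 in LNCaP-ENZ48, with 1.64 for RES-A and 3.58 for RES-B. Of the exonic bases of HOXA11, 27.2% lie opposite exons of another gene. Cell Ranger counts sense reads by default, but the setting is not given in the sources used here, so a share of antisense reads in either gene was not tested.

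HOXA9, a posterior gene known for its part in leukaemia with the cofactor MEIS1, had 8 UMIs in LNCaP, 8 for LNCaP-ENZ48, 0 for RES-A and 9 for RES-B. The 3 libraries with UMIs lay between 0.131 and 0.171 CPM with overlapping intervals, and the 0 in RES-A allows up to 0.0523 CPM at 3 UMIs. At these counts HOXA9 in RES-A was at least 3.05-fold lower than in LNCaP, but with 8 UMIs over both libraries it was not among the genes compared. HOXA13, the last gene of the cluster, which patterns the digits and the urogenital tract, had 0 UMIs in LNCaP and 2 in each of the other libraries. No difference in HOXA13 was detectable at this depth. HOXA9 and HOXA10 share exonic bases (13.1% and 9.93%) with an annotated readthrough gene of the pair, which had 0 UMIs in all libraries, and their last 1000 exonic bases are free of it.

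The middle genes of the cluster divided. HOXA5, a regulator of lung and mammary development, had 107 UMIs in LNCaP and 115 in LNCaP-ENZ48, against 24 for RES-A and 94 for RES-B. Its levels were 2.13, 1.89, 0.419 and 1.79 CPM, so RES-A was low and the other 3 libraries overlapped. The log2 ratio to LNCaP was -2.35 (-3.05 to -1.70) in RES-A and -0.25 (-0.67 to 0.16) in RES-B. HOXA7, which acts in the trunk and in keratinocyte differentiation, had another order, with 17 UMIs in LNCaP and 7 in LNCaP-ENZ48, with 36 for RES-A and 51 for RES-B. These were 0.339, 0.115, 0.628 and 0.970 CPM, lowest after 48 h of enzalutamide and high in both resistant lines, which did not differ beyond counting error (log2 ratio of RES-B to RES-A 0.63, -0.02 to 1.29). The log2 ratio of RES-B to LNCaP was 1.52 (0.70 to 2.40), that of RES-A to LNCaP 0.89 (0.02 to 1.82) and that of LNCaP-ENZ48 to LNCaP -1.56 (-3.07 to -0.21). The last of these was not called in G1 cells alone or where 50 UMIs were required, and the ratio of RES-A passed 2-fold in G1 cells, at 1.33. In cells thinned to 5000 UMIs, where 1 LNCaP cell was positive, the ratio of RES-B was 2.90 and that of RES-A 2.64. The lower level in LNCaP-ENZ48 was not seen there, with 3 positive cells (0.0695%) against 1 in LNCaP (0.0561%), too few for a ratio. HOXA7 was also higher in cells called G2/M than in G1, a difference noticed after the values were seen, at 0.992 CPM (0.476 to 1.83) against 0.193 (0.0775 to 0.397) in LNCaP and 2.10 (1.30 to 3.21) against 0.703 (0.463 to 1.02) in RES-B. In RES-A the intervals of these phases overlapped, at 1.27 and 0.485 CPM, and LNCaP-ENZ48 had 0 HOXA7 UMIs in G2/M. Of the exonic bases of HOXA7, 62.5% lie opposite exons of another gene.

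The anterior genes were low throughout. HOXA4, a gene of the neck and trunk, had 39 UMIs in LNCaP, 52 for LNCaP-ENZ48, 0 for RES-A and 1 for RES-B. Both parental libraries, at 0.777 and 0.855 CPM, were above both resistant lines, at 0 and 0.0190 CPM. HOXA4 was at least 14.8-fold lower in RES-A than in LNCaP, and the log2 ratio of RES-B to LNCaP was -5.35 (-10.69 to -2.79). With all barcodes the latter was -3.86, and in thinned cells, where both resistant lines had 0, the bounds were -2.10 for RES-A and -1.93 for RES-B. HOXA3, which patterns the thymus and parathyroid, had 18 UMIs in LNCaP and 22 in LNCaP-ENZ48, against 0 for RES-A and 19 for RES-B. The 3 libraries with UMIs were within 0.359 to 0.362 CPM, and RES-A was at least 6.85-fold lower than LNCaP, a log2 bound of -2.78 that was -1.77 in thinned cells. HOXA2, a gene of the hindbrain and branchial arches, had 1, 3, 0 and 0 UMIs, and no difference was detectable.

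A member was called higher or lower where both libraries together had at least 10 UMIs, the ratio was at least 2-fold and its 95% counting interval left out no change. In RES-A against LNCaP, 6 of the 9 members had enough UMIs, and 4 of them (HOXA3, HOXA4, HOXA5 and HOXA10) were lower, beside 9.01% of 16844 genes, and 1 (HOXA11) was higher, beside 12.5%. In RES-B against LNCaP, 7 members had enough UMIs, and 3 of them (HOXA7, HOXA10 and HOXA11) were higher, beside 11.2% of 16666 genes, and 1 (HOXA4) was lower, beside 7.83%. In RES-B against RES-A, 5 members had enough UMIs, and 3 of them (HOXA3, HOXA5 and HOXA10) were higher, beside 7.1% of 16783 genes, and 0 were lower, beside 7.13%. In LNCaP-ENZ48 against LNCaP, 7 members had enough UMIs, and 1 (HOXA7) was lower, beside 2.97% of 16323 genes, and 0 were higher, beside 1.33%. The median log2 ratio of the members compared was -2.56 in RES-A against LNCaP, 0.10 in RES-B against LNCaP, 2.09 in RES-B against RES-A and -0.17 in LNCaP-ENZ48 against LNCaP, where the medians of all genes compared were 0.04, 0.10, 0.06 and -0.09. The 3 comparisons with LNCaP share that library, so the same LNCaP counts enter each of them, and the members were chosen with these ratios known.

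**Figure D2:**
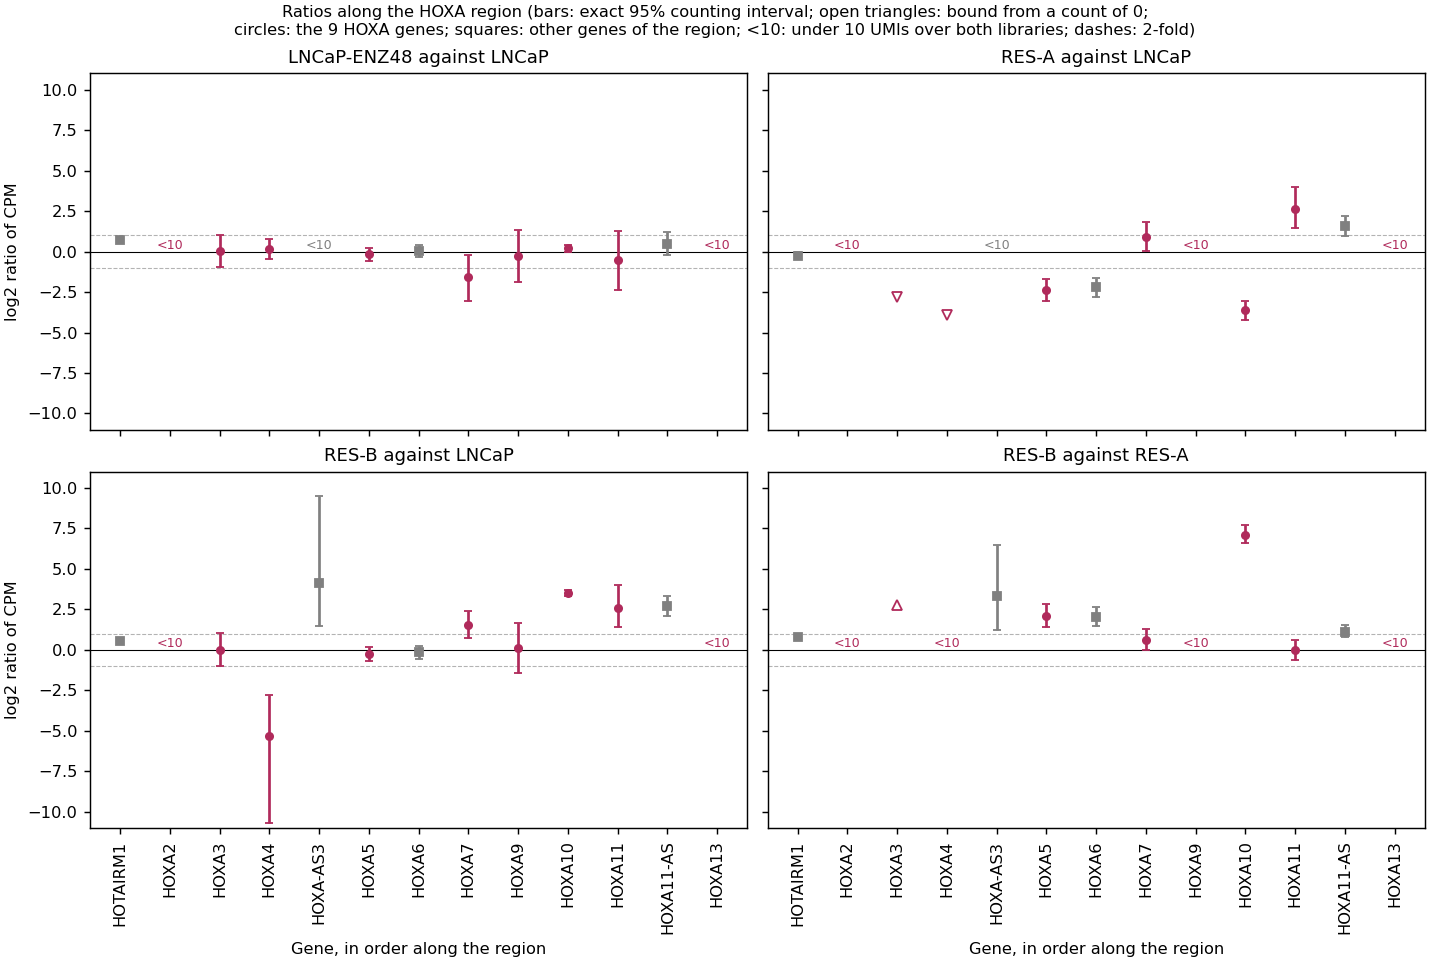
Log2 ratio of CPM of the genes along the HOXA region in the 4 comparisons, with exact 95% counting intervals; circles are the 9 HOXA genes, squares the other genes of the region, open triangles bounds from a count of 0, and dashed lines mark 2-fold. In RES-A against LNCaP the genes from HOXA3 to HOXA6 and HOXA10 lie below the lower dashed line and HOXA11 and HOXA11-AS above the upper one; in RES-B against LNCaP HOXA4 lies at -5.35 and HOXA10 at 3.49.

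The 9 members together gave 488 UMIs in LNCaP and 619 in LNCaP-ENZ48, with 138 for RES-A and 3642 for RES-B. HOXA10 made up 59.6%, 65.3%, 19.6% and 94% of these UMIs. Without HOXA10 the other 8 members summed to 3.92 CPM (3.39 to 4.51) in LNCaP and 3.53 (3.08 to 4.04) in LNCaP-ENZ48, beside 1.94 (1.59 to 2.33) for RES-A and 4.18 (3.65 to 4.78) for RES-B. RES-B was thus within counting error of LNCaP in this sum and RES-A below it.

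The rest of the cluster followed its neighbours in part. HOXA6, between HOXA5 and HOXA7, was at 2.41 CPM in LNCaP, 2.48 for LNCaP-ENZ48, 0.523 for RES-A and 2.15 for RES-B, a pattern like that of HOXA5. HOTAIRM1, a long noncoding RNA of the region, was at 7.33 CPM in LNCaP and 12 in LNCaP-ENZ48, against 6.17 for RES-A and 10.8 for RES-B, with log2 ratios to LNCaP of 0.71 (0.53 to 0.90), -0.25 (-0.46 to -0.03) and 0.55 (0.36 to 0.75). HOXA-AS3 had 1, 3, 2 and 18 UMIs, and HOXA10-AS, HOXA-AS2 and HOTTIP had at most 3 UMIs in any library. Of the 9 genes of this list, 4 or 5 had enough UMIs in each comparison. In RES-A against LNCaP, 1 of 4 was lower (HOXA6), beside 9.01% of all genes, and 1 higher (HOXA11-AS), beside 12.5%. In RES-B against LNCaP, 2 of 5 were higher (HOXA-AS3 and HOXA11-AS), beside 11.2%, and 0 lower, beside 7.83%. RES-B exceeded RES-A in 3 of 5 (HOXA6, HOXA-AS3 and HOXA11-AS), beside 7.1%, and 0 were lower, beside 7.13%. After 48 h of enzalutamide 0 of 4 passed the limit, beside 1.33% of all genes higher and 2.97% lower.

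The genes around the cluster were also compared. The 25 genes with at least 5 CPM on each side of the cluster spanned 16.6 to 39.7 Mb of chromosome 7. Their median log2 ratio was -0.09 in RES-A against LNCaP and -0.08 in RES-B against LNCaP. All 10254 genes with at least 5 CPM had 0.02 and 0.11. The quartiles of the flanking genes were -0.36 to 0.29 in RES-A and -0.53 to 0.19 in RES-B. With 10 genes on each side the medians were -0.06 and -0.17. SKAP2, an adaptor of Src family kinase signalling and the nearest such gene on the anterior side, was at 44.2 CPM in LNCaP and 45.7 in LNCaP-ENZ48, with 52.4 for RES-A and 56.9 for RES-B. SNX10, a sorting nexin farther out, was at 20.3, 17.5, 15.7 and 11.1 CPM. HIBADH, an enzyme of valine breakdown 274.9 kb after EVX1, the homeobox gene that ends the region, was at 29.2, 36.7, 36.3 and 56.9 CPM. TAX1BP1, an autophagy receptor beyond it, was at 137, 175, 260 and 335 CPM, and with a log2 ratio of 1.29 in RES-B against LNCaP it was the only one of these 4 past 2-fold.

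The share of cells with a UMI was read after every cell had been thinned to 5000 UMIs, because the libraries differed in depth. HOXA10 was then found in 2.92% of LNCaP cells (exact binomial 95% interval 2.19 to 3.81), 3.17% of LNCaP-ENZ48 cells (2.67 to 3.74), 0.263% of RES-A cells (0.136 to 0.458) and 27.6% of RES-B cells (26.3 to 29). With all UMIs the shares were 13.8%, 8.60%, 0.591% and 53.3%, and a RES-B cell held up to 6 HOXA10 UMIs, against 4, 3 and 1 in the others. The order of LNCaP and LNCaP-ENZ48 turned with the depth of LNCaP cells, while RES-B was high and RES-A low either way. No other member exceeded 1.01% of thinned cells in any library. HOXA5 was found in 1.01%, 0.904%, 0.263% and 0.936% of thinned cells, HOXA11 in 0, 0.0463%, 0.438% and 0.492%, and HOXA7 in 0.0561%, 0.0695%, 0.350% and 0.419%. HOXA4 was found in 0.281%, 0.440%, 0 and 0, and 0 of 4569 RES-A cells allows a share of up to 0.0657% at 3 cells and 0 of 4061 RES-B cells up to 0.0739%. These limit the cells with a UMI among 5000, not the cells that express the gene. Each library is 1 cell line, so it holds no cell type that lacks HOXA10 to show the level of free RNA. The share in RES-A is the lowest seen, at a median of 12138 UMIs per cell against 12285 in RES-B, and the part of free RNA in the shares of the other members was not tested.

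The spread of HOXA10 UMIs over RES-B cells was set beside that of counting alone and that of other genes. If each RES-B cell had the library's mean level at its own depth, a Poisson count would leave 1802 cells with 0 UMIs, 1413 with 1, 602 with 2 and 244 with 3 or more. The counts were 1895, 1313, 546 and 307 cells, so more cells were empty and more held 3 or more UMIs than counting alone gives. In thinned cells the variance of HOXA10 over its mean was 1.02, beside a median of 1.03 over 812 genes of like mean (within 20%), whose lower and upper deciles were 0.996 and 1.12. HOXA10 thus lay within the deciles of genes of like level. In LNCaP 10 cells held 3 or more HOXA10 UMIs where the same Poisson count gives 1.34, and the ratio in thinned cells was 1.04 beside an upper decile of 1.07. No cell of RES-A held more than 1 HOXA10 UMI.

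**Figure D3:**
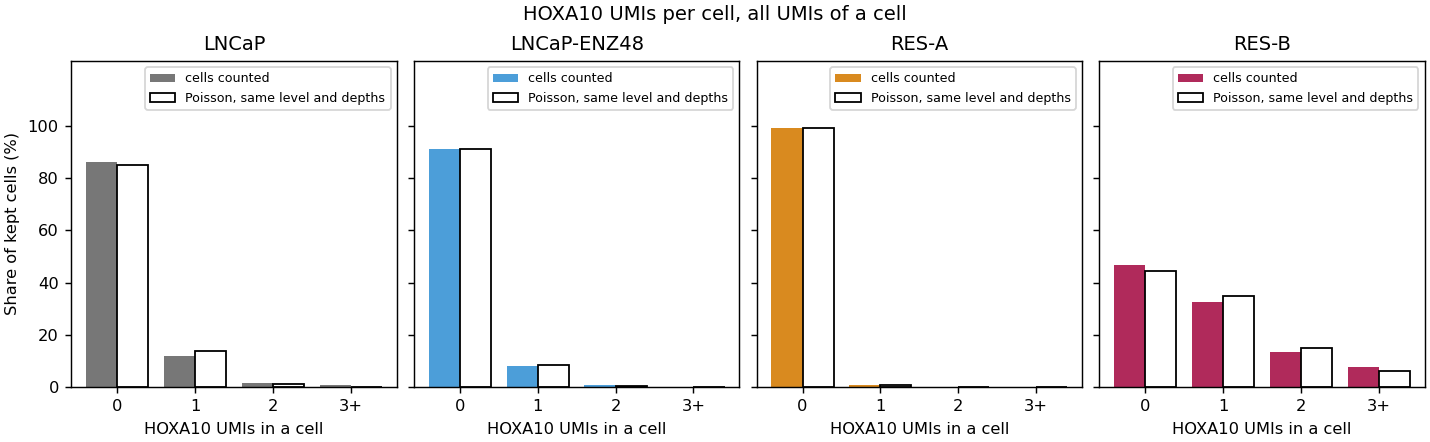
Share of kept cells (%) with 0, 1, 2 and 3 or more HOXA10 UMIs in each library (filled bars), beside a Poisson count with the library's level and each cell's depth (open bars). In RES-B 53.3% of cells have at least 1 UMI and the filled bars exceed the open ones at 0 and at 3 or more; in RES-A 99.4% of cells have 0.

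HOXA10 was highest in RES-B and lowest in RES-A in every phase of the cell cycle. In cells called G1 it was at 5.39 CPM in LNCaP, 6.55 for LNCaP-ENZ48, 0.332 for RES-A and 63.6 for RES-B. In cells called S it was at 4.74, 3.90, 0.472 and 65.7 CPM, on 117, 156, 463 and 267 cells. In cells called G2/M it was at 7.64, 8.18, 0.930 and 70.6 CPM. Within RES-B the 3 values lay between 63.6 and 70.6 CPM, with intervals of 61.1 to 66.2 in G1 and 65.5 to 76.0 in G2/M that overlapped. In S phase the order of LNCaP and LNCaP-ENZ48 was the other way round, with overlapping intervals.

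**Figure D4:**
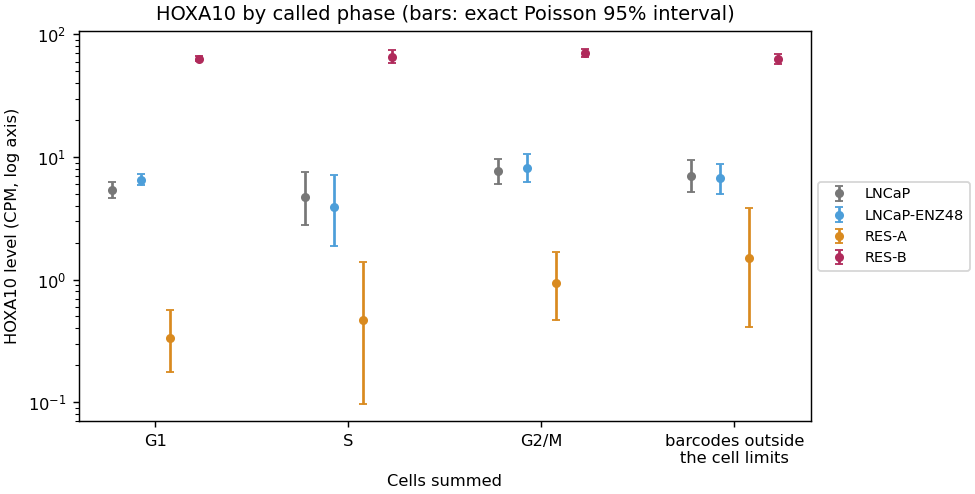
HOXA10 level (CPM, log axis) in cells called G1, S and G2/M and in barcodes outside the cell limits, for the 4 libraries, with exact Poisson 95% intervals. RES-B lies between 63.2 and 70.6 CPM in all 4 positions and RES-A under 1.5 CPM.

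Members were rarely caught in the same cell. Pairs were counted where each gene had at least 20 positive cells after thinning, which left 3 pairs in RES-B and 1 in LNCaP-ENZ48. In RES-B, HOXA10 and HOXA5 were found together in 11 of 4061 cells, where the product of the shares gives 10.5, and HOXA10 and HOXA11 in 6 cells, where it gives 5.53. HOXA5 and HOXA11 were found together in 0 cells, where it gives 0.187. The correlation of log-normalised values over cells lay between -0.01 and 0.00 for these pairs, and was 0.01 for HOXA5 and HOXA10 in LNCaP-ENZ48. With all UMIs, 122 RES-B cells held 2 or more members, where independent shares give 113. In LNCaP 39 cells did, where they give 30.9, in LNCaP-ENZ48 28, where they give 21.2, and in RES-A 2, where they give 1.46. All 4 counts were above the independent ones, in cells that differ in depth. In thinned cells the counts were 25 in RES-B, where independent shares give 25.2, 4 in LNCaP-ENZ48, where they give 2.92, and 0 in LNCaP and RES-A, where they give 0.971 and 0.315. At this depth the counts cannot show a weak link between members.

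Over RES-B cells no gene reached a correlation of 0.1 with HOXA10 in either direction. Among 7480 genes found in at least 5% of thinned RES-B cells, the highest correlation with HOXA10 was 0.07 (SRP68, a subunit of the signal recognition particle) and the lowest was -0.09 (NEAT1, a nuclear long noncoding RNA), over 4061 cells that share 1 library. The values for HOXC6, HOXC9, HOXB13 and HOTAIRM1 were 0.00, 0.01, 0.01 and 0.02.

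Among the HOX genes of all 4 clusters, HOXA10 and HOXC4 were the 2 called lower in RES-A and higher in RES-B than in LNCaP. The other gene of paralogue group 10 with counts, HOXC10, was at 0.0797 CPM in LNCaP and 0.0986 in LNCaP-ENZ48, against 1.60 for RES-A and 2.04 for RES-B, higher in both resistant lines. HOXD10 had 0 UMIs in all 4 libraries. Of the 9 HOXC genes, 8 had enough UMIs, and 7 of these were higher in RES-B than in LNCaP, beside 11.2% of all genes, among them HOXC6 at 11.6 CPM in LNCaP and 31.1 in RES-B and HOXC9 at 9.30 and 24.4 CPM. In RES-A, HOXC6 (11.7 CPM) and HOXC9 (10.7 CPM) were within 2-fold of LNCaP, and HOXC5 and HOXC10 were higher and HOXC4 lower, beside 12.5% and 9.01% of all genes. HOXC4 was at 1.47, 1.66, 0.593 and 6.62 CPM over the 4 libraries. The median log2 ratio of the HOXC genes was 1.46 in RES-B and 0.17 in RES-A against LNCaP.

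HOXB genes were mixed. HOXB7 was at 1.08 CPM in LNCaP and 1.00 in LNCaP-ENZ48, with 0.0698 for RES-A and 0.913 for RES-B, low in RES-A as were HOXA5, HOXA6 and HOXA3. HOXB6 and HOXB9 were higher in RES-A, at 5.04 and 5.76 CPM against 1.63 and 1.29 in LNCaP. Of 10 HOXB genes, 6 had enough UMIs in each resistant line against LNCaP, and 2 were higher and 2 lower in RES-A, beside 12.5% and 9.01% of all genes. In RES-B 1 was higher (HOXB3) and 1 lower (HOXB5), beside 11.2% and 7.83%. HOXB13, the posterior gene of luminal prostate cells, stayed within 2-fold, at 135, 157, 92.0 and 92.4 CPM. Its neighbours PRAC1 and PRAC2, small prostate-expressed genes, did not in RES-B. PRAC1 was at 771, 1015, 394 and 0.0380 CPM and PRAC2 at 120, 142, 99.0 and 13.9 CPM. Of the 9 HOXD genes only HOXD13 passed 5 CPM, with 0, 0, 468 and 7 UMIs. Its 8.16 CPM in RES-A was 137-fold above LNCaP, a bound from the 0 of LNCaP.

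**Figure D5:**
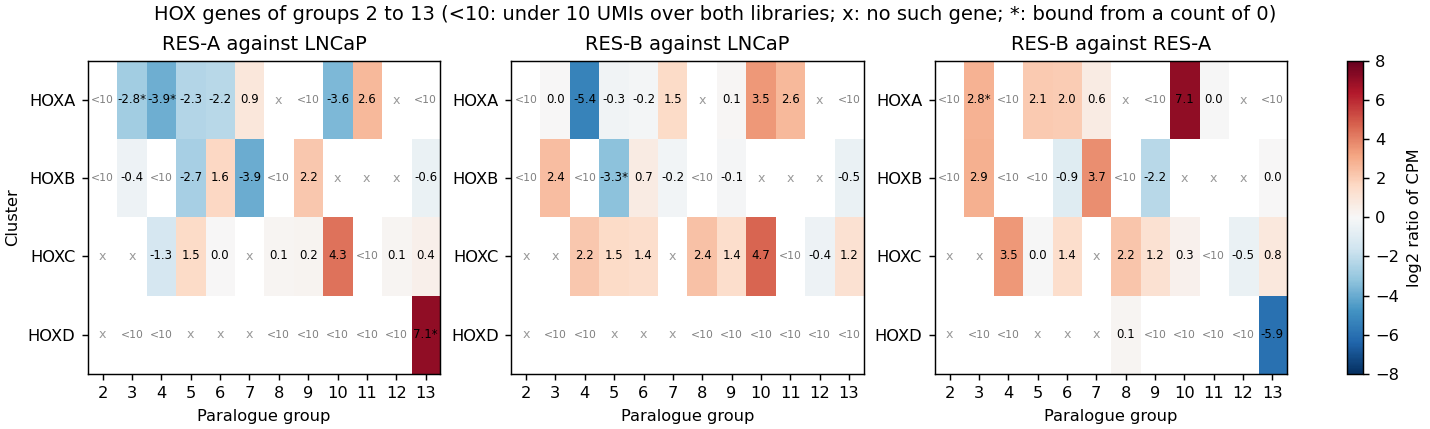
Log2 ratio of CPM for the HOX genes of paralogue groups 2 to 13, by cluster (rows) and paralogue group (columns), in the 2 resistant lines against LNCaP and against each other; "<10" marks genes with under 10 UMIs over both libraries and an asterisk a bound from a count of 0. HOXA10 is at -3.6 in RES-A and 3.5 in RES-B against LNCaP, and the HOXC row is above 0 in RES-B except for HOXC12.

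The cofactors and regulators of HOX genes were counted by the same rule. Of 9 HOX cofactors, PKNOX1 had the highest level in RES-A, at 19.1 CPM against 14.3 in LNCaP, 10.9 in LNCaP-ENZ48 and 17.4 in RES-B. MEIS1 was under 1 CPM in all libraries and MEIS2 had UMIs in RES-A only. Of the 8 cofactors with enough UMIs in RES-A against LNCaP, 1 was higher (MEIS3) and 1 lower (PKNOX2), shares of 12.5% each beside 12.5% and 9.01% of all genes. Of 7 in RES-B against LNCaP, 0 were higher and 1 lower (PKNOX2), beside 11.2% and 7.83% of all genes. Of 15 genes of the Trithorax side, which keeps HOX genes active, 0 passed 2-fold in RES-A, beside 12.5% of all genes higher and 9.01% lower. In RES-B 0 were higher, beside 11.2% of all genes, and 1 was lower, 6.67% of the list beside 7.83%. This was KAT6A, an acetyltransferase, at 31.4 CPM in LNCaP and 14.99 in RES-B. Of 16 genes of the Polycomb side, which keeps them silent, BMI1 was higher in both resistant lines, at 7.61 CPM in LNCaP, 6.89 for LNCaP-ENZ48, 15.3 for RES-A and 17.9 for RES-B. JARID2, a partner of the Polycomb methyltransferase, was lower in RES-A, at 10.1 CPM against 28.1 in LNCaP, 23.4 in LNCaP-ENZ48 and 18.7 in RES-B. Each of these calls was 1 of 16 genes, or 6.25%. The shares of all genes were 12.5% higher and 9.01% lower in RES-A and 11.2% higher in RES-B. In RES-B 0 genes of the Polycomb side were lower, beside 7.83%. CDX genes, which switch on HOX genes in the embryo, had at most 1 UMI in any library, and of the retinoid receptors RARA was highest, at 5.44, 4.96, 8.20 and 6.58 CPM. Of these 6 genes, 3 had enough UMIs, and 0 were called in either resistant line against LNCaP. The shares of all genes there were 12.5% higher and 9.01% lower in RES-A and 11.2% and 7.83% in RES-B. RARB and RARG were lower in RES-B than RES-A, beside 7.13% of all genes. After 48 h of enzalutamide, MEIS1 (1 of 7 cofactors with enough UMIs) and RARB (1 of 3 receptors) were lower. So were HOXB4 and HOXB5 (2 of 7 HOXB genes). The share of all genes lower was 2.97%. MEIS1 had 10 UMIs against 27 in LNCaP, RARB 15 against 32, HOXB4 1 against 9 and HOXB5 16 against 28. These low-count calls were not repeated in thinned cells. In these lists 0 genes were higher, beside 1.33%. KMT2A, a methyltransferase of HOX genes, was at 81.0, 75.6, 50.2 and 71.2 CPM and EZH2, the Polycomb methyltransferase, at 25.8, 21.4, 36.0 and 28.8 CPM, within 2-fold of LNCaP in every library.

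The genes whose pattern over the 4 libraries was closest to that of HOXA10 were sought among 10253 others with at least 5 CPM in 1 library, by the root mean square difference of log2(CPM + 0.1) centred on each gene's mean. Of the 10 closest, 9 are named, and the other is Y-linked and not reported. The closest was ZNF385B, a zinc finger gene, at 2.17 CPM in LNCaP and 0.477 in LNCaP-ENZ48, against 0.0349 for RES-A and 15.1 for RES-B (difference 0.79), followed by PLP2, a membrane protein gene, at 10.6, 13.8, 1.34 and 38.5 CPM (0.81). The others were AFF3, DAPK1, CSGALNACT1, GCNT1, AQP3, PRUNE2 and CAMK2N1, with differences of 0.93 to 1.24. No other HOX gene was among them. With an offset of 1 CPM 5 of the 10 were kept, and by Pearson correlation 0, so the set depends on the measure.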

How the data were processed

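Living cells of the 4 cultures were read with the 10x Genomics 3′ v3 kit. The authors aligned and counted the reads with Cell Ranger 3.0.2 on GRCh38, per the labels, and deposited 1 matrix of UMI counts per library, not normalised, in which whole numbers stand for molecules per gene and cell. Cells were kept by the limits of the study (over 3000 genes and 16000 UMIs in LNCaP, over 1500 genes and 5000 UMIs in the others), and doublets were not removed. Counts were summed per library and divided by the library total (CPM). With 1 library per group there was no test: ratios have exact conditional binomial (Clopper-Pearson) 95% intervals, levels exact Poisson and shares exact binomial ones, all for counting error only. Cells were thinned at random to 5000 UMIs for shares, and phases were called with the Seurat 5.3.0 lists in scanpy 1.11.5. Alternatives used other cell filters, TMM scaling (edgeR 4.0.16) and DESeq2 1.42.0 size factors. Named genes were all 9 members, of the other lists those with at least 5 CPM and a 2-fold ratio or else the highest, the closest 10 to HOXA10 and the nearest 2 expressed genes on each side; the choice of any other gene followed its values. The members and lists were chosen with earlier results of these data known. Some genes of the lists are not reported here. Positions are from GENCODE 44 on GRCh38 and promoters from RefSeq.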

Additional observations from a re-analysis of the deposited data

Results flagged for a closer look

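HOXA10 went in opposite directions in the 2 resistant lines against the same LNCaP library, with a log2 ratio of 3.49 (3.32 to 3.67) in RES-B and -3.62 (-4.25 to -3.05) in RES-A. The difference between the lines was not tested, since each has 1 library, and both ratios share the LNCaP counts.

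HOXA10 was also high in the barcodes that the cell limits left out of RES-B, at 63.2 CPM (57.7 to 69.1) over 846 barcodes with a median of 3261 UMIs. In the barcodes left out of LNCaP it was at 7.04 CPM (5.14 to 9.42), of LNCaP-ENZ48 at 6.70 CPM (5.02 to 8.76) and of RES-A at 1.49 CPM (0.407 to 3.83, on 4 UMIs). The order of the libraries was thus that of the kept cells for RES-B and RES-A. The part of free RNA and damaged cells in these values was not tested.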

How the results depend on the processing

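All 13 member ratios that were called kept their direction under each alternative that gave a value (all barcodes, 1 filter for all libraries, G1 cells, TMM, DESeq2 size factors, cells thinned to 5000 UMIs, without the cells of highest UMI totals, and a floor of 1 UMI). HOXA10 ran from 3.38 to 3.56 in RES-B against LNCaP, from -4.02 to -3.52 in RES-A against LNCaP and from 6.96 to 7.58 in RES-B against RES-A. Of all member ratios under an alternative, 177 stayed near the reported value and 13 did not. Near means within its interval or, where a count was 0 under the alternative, less than 1 log2 unit from it. All 13 were of HOXA3, HOXA4, HOXA7, HOXA9 or HOXA11, in thinned cells or with a floor of 1 UMI. In thinned cells HOXA7 had too few UMIs for a ratio of LNCaP-ENZ48 to LNCaP. TMM shifted every gene by -0.11 in RES-B and by 0.10 in LNCaP-ENZ48 against LNCaP. In LNCaP-ENZ48 against LNCaP the 1 member lower (HOXA7) became 0 with at least 50 UMIs, at 4-fold and in G1 cells. In RES-A against LNCaP the 1 member higher became 2 (HOXA7 with HOXA11) with all barcodes and in G1 cells, and the 4 lower became 2 with at least 50 UMIs. In RES-B against LNCaP the 1 lower became 0 with at least 50 UMIs. A higher minimum leaves fewer genes compared. The share of HOXA10 cells moved with depth by construction, to 13.8% in LNCaP and 8.60% in LNCaP-ENZ48, with 0.591% for RES-A and 53.3% for RES-B, without thinning, and to 1.07%, 1.34%, 0.0438% and 11.8% with cells thinned to 2000 UMIs. Of the genes most like HOXA10, 5 of 10 were shared with an offset of 1 CPM and 0 of 10 by Pearson correlation. The medians of flanking genes stayed within their quartiles with 10 genes on each side. No paired analysis was possible because each group holds 1 library. Depth limits every member but HOXA10, and with 1 library per line the line, its culture and its library cannot be told apart.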

Other observations

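Of the 10 genes with a pattern most like that of HOXA10, 4 lie on chromosome 9 (DAPK1, GCNT1, AQP3 and PRUNE2), where 4.05% of the genes compared lie. GCNT1 was at 24.5 CPM in LNCaP and 12.99 in LNCaP-ENZ48, with 2.34 for RES-A and 38.0 for RES-B. PRUNE2, in the same order, was at 112, 69.4, 2.18 and 133 CPM. Both were less than 2-fold higher in RES-B than in LNCaP, unlike HOXA10. By Pearson correlation 0 of the 10 were kept, so the 4 on chromosome 9 belong to 1 measure of likeness. Their place on chromosome 9 was noticed after the values were seen and was not tested.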
